A study of Mus musculus with 6 samples.

Results

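The epidermal transglutaminases Tgm1, Tgm3 and Tgm5 and the envelope scaffold genes Ivl, Evpl, Ppl, Scel and Cnfn were examined in newborn mouse epidermis. These 8 genes were taken by name, were all among the 12894 Ensembl gene IDs of the deposited table, and all passed the filter on low values. Epidermis was separated from the dermis of C57BL/6 mice at postnatal day 0 and profiled by bulk RNA sequencing, which pools RNA from every cell type present. Of the 6 libraries, 3 came from animals labelled Hnrnpu knockout, made with a loxP-Cre system, and 3 from controls. Control 1 carries the genotype "Wild type" and controls 2 and 3 the genotype "Heterogenous", which may mean heterozygous. The labels name neither the Cre driver, nor the deleted part of Hnrnpu, nor whether any control carried Cre. Hnrnpu encodes a nuclear matrix protein that binds RNA.

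The cornified envelope is a sheet of cross-linked protein that replaces the plasma membrane as keratinocytes die at the skin surface. Transglutaminases are calcium-dependent enzymes that make it, by joining glutamine to lysine residues of their substrates. Envoplakin, periplakin and involucrin are laid down first beneath the membrane as a scaffold, to which loricrin and small proline-rich proteins are added later. Loss of TGM1 in people causes lamellar ichthyosis, a scaling disorder of the skin.

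Coding stretches around the active site show how alike the enzymes are. Each spans 36 bases around the codon of the active-site cysteine, which is in capitals, and was read from the GENCODE M21 transcripts (GRCm38).
Tgm1: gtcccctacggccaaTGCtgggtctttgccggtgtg
Tgm3: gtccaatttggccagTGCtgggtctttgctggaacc
Tgm5: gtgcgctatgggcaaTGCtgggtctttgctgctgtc
The cysteine was codon 376 of Tgm1, 273 of Tgm3 and 283 of Tgm5. Tgm1 and Tgm5 had 29 of these 36 bases in common, and Tgm3 shared 26 with each of them. Over the aligned coding sequence Tgm1 matched Tgm3 at 56.9% and Tgm5 at 57.1% of bases. The longest identical run between transcripts of any pair of the 8 genes was 22 bases, between Tgm1 and Tgm5.

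The involucrin gene is shown for its glutamine codons, since glutamine is the residue that transglutaminases act on. In the stretch below, 23 of 30 codons encode glutamine, and these are in capitals (coding bases 355 to 444).
Ivl: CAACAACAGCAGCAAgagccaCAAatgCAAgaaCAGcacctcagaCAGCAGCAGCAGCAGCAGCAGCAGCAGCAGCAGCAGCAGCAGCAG
Glutamine codons made up 26.7% of the 468 codons of Ivl, against a median of 4.49% over 10921 genes of the table with a coding sequence of at least 300 bases. They made up 9.78% in Evpl and 9.35% in Ppl, more than in 98.7% and 98.3% of those genes. They made up 5.06% in Scel and 5.41% in Cnfn, and 3.44% in Tgm1, 3.61% in Tgm3 and 5.53% in Tgm5, all between 21.7 and 75.1% of the way up the ranked genes. Lysine, the partner residue, was encoded by 47 of 468 codons in Ivl and by 1 of 111 in Cnfn.

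The libraries were comparable in depth but not in sum. An estimated 6460000 to 9120000 reads were assigned per library, and each member had between 283 and 12129 estimated reads in a library. The sums of normalized counts were 8191409 to 10987666 in knockout libraries and 6850663 to 7453638 in control libraries. Hnrnpu had 1565, 1342 and 1036 normalized counts in knockouts 1 to 3, against 1450, 1318 and 1160 in controls 1 to 3, so the gene count did not separate the genotypes and directions rest on the labels. Xist, the RNA of the inactive X chromosome, had 5656 and 4758 normalized counts in knockouts 2 and 3, 1.87 in knockout 1 and at most 3.27 in a control, so sex and genotype cannot be told apart in knockouts 2 and 3. The epidermal markers Krt1, Krt10 and Lor (loricrin) were abundant in all 6 libraries, with Krt10 at 159410 to 258830 normalized counts in knockouts and 263800 to 291290 in controls. Melanocyte markers were all higher (5 of 5), with sums of 2618 to 4264 in knockouts and 340.9 to 477.2 in controls. Dermal fibroblast markers were higher for 3 of 4 measured, with sums of 440.2 to 515.8 in knockouts and 136.5 to 391.1 in controls. The other, Dcn, was at −0.75 on the log2 scale and did not pass (limma adjusted p = 0.341). Lum and Pdgfra, also looked for, were not in the table. Of the granular keratinocyte markers 0 of 5 were higher and 3 lower (Flg2, Hrnr and Casp14), with sums of 192300 to 294200 in knockouts and 326000 to 407200 in controls. The call of Casp14 held in all 18 alternative settings, that of Flg2 was lost in 7 and that of Hrnr in 11. Of the suprabasal markers 0 of 4 passed either way. Among 6 basal markers Krt14 was higher and Krt15 lower, with Krt14 at 59688, 115330 and 21768 in knockouts 1 to 3, against 10309, 5712 and 3208 in controls 1 to 3. Of 5 leukocyte markers Lyz2 was higher and Cd3e and Csf1r lower, calls lost in 10, 3 and 7 of the 18 settings, and the 1 endothelial marker measured did not pass. The 3 skeletal muscle markers looked for were not in the table. Among all tested genes 17.7% were called higher and 15.9% lower. The part of these markers in the results below was not tested.

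Of the 8 genes, 2 were higher in knockout epidermis and 0 were lower (limma, Benjamini-Hochberg adjusted p of 0.05 over 12872 genes). Tgm1 was higher by 1.71 and Cnfn by 2.59 on the log2 scale. Among all tested genes 17.7% were called higher and 15.9% lower, or 33.6% in either direction, so the share of members called higher, 25.0%, was close to that of the table. The median log2 change of the 8 was 0.10, beside −0.02 for all tested genes. The 3 knockout values lay wholly above the control values for Tgm1 and Cnfn, wholly below for Ppl, and overlapped for the other 5. Over the table the groups did not overlap for 50.8% of genes, with knockouts above for 25.8% and below for 25.0%. Fewer cells of a type and less RNA per cell cannot be told apart in these bulk libraries. Nothing says that libraries of a group came from separate litters, although each title carries its own animal number.

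**Figure D1:**
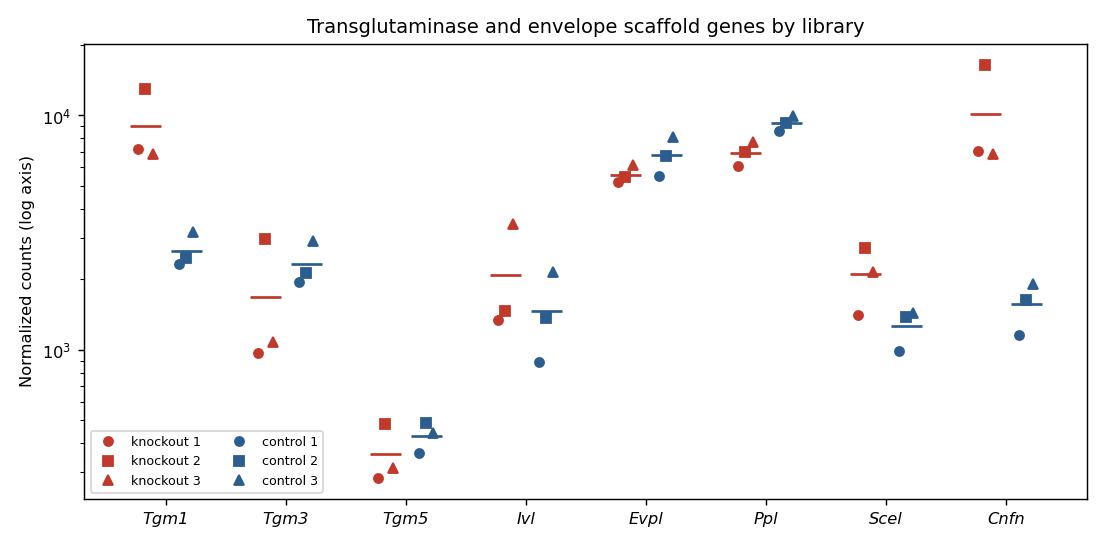
Normalized counts (log axis) of the 8 genes in each library, with knockouts left of controls; symbols mark the library number and bars the group means. The knockout points of Tgm1 and Cnfn lie above every control point, those of Ppl lie below, and the other genes overlap.

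Tgm1 encodes the membrane-anchored transglutaminase of the upper epidermis. It had 7195, 12909.5 and 6848 normalized counts in knockouts 1 to 3, against 2325, 2456 and 3176 in controls 1 to 3. All knockout libraries were above all controls, and knockout 2 was the highest. The log2 change was 1.71 ± 0.27 (SE, n = 3 and 3), a 3.27-fold rise, and its 95% interval on the log2 scale ran between 1.10 and 2.32 (limma adjusted p = 0.00249). Against the control with the adjacent animal number, knockouts 1 to 3 differed by 1.63, 2.39 and 1.11 on the log2 scale. Since the groups did not overlap, any pairing would give a rise in each pair. The exact permutation p, two-sided, was 0.1, which no arrangement of 3 against 3 libraries can undercut.

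Tgm3 encodes a cytosolic transglutaminase, made as a zymogen and also active in the hair follicle. It had 973.8, 2974 and 1084 normalized counts in knockouts 1 to 3, against 1943, 2138 and 2904 in controls 1 to 3. Knockouts 1 and 3 were below all controls and knockout 2 above them all. Its log2 change of −0.65 ± 0.40 had a 95% interval between −1.56 and 0.26 (limma adjusted p = 0.233). Without knockout 2 the change was −1.16 and passed the threshold (adjusted p = 0.00802). With knockout 1 alone against the controls it was −1.23 (adjusted p = 0.0207), a value that assumes this lone library varies as the controls do. Hair follicle markers, of which 5 of 8 were measured, summed to 187.8, 818.2 and 125.6 normalized counts in knockouts 1 to 3. In controls 1 to 3 they summed to 616.3, 1335 and 677.0. Knockout 2 was the highest knockout for these markers, as it was for Tgm3, Tgm1 and Cnfn. The highest control was control 2 for these markers and control 3 for Tgm3. Of these markers Krt73 was higher and Tchh lower in knockouts, and their part in the Tgm3 values was not tested.

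Tgm5 encodes a transglutaminase whose loss in people causes peeling of acral skin. It had 283.2, 481.5 and 313.8 normalized counts in knockouts 1 to 3, against 361.7, 485.3 and 440.6 in controls 1 to 3. The groups overlapped through knockout 2. Its log2 change of −0.28 ± 0.24 had a 95% interval between −0.83 and 0.27 (limma adjusted p = 0.383). With library totals set equal it was −0.63 and passed the threshold (adjusted p = 0.0356), a scaling that moves the median of all genes to −0.36.

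Tgm1 moved apart from the other enzymes within each library, a comparison that does not depend on how libraries were scaled. The log2 ratio of Tgm3 to Tgm1 was −2.88, −2.12 and −2.66 in knockouts 1 to 3, against −0.26, −0.20 and −0.13 in controls 1 to 3. The means were −2.55 ± 0.39 in knockouts and −0.20 ± 0.07 in controls (SD, n = 3 each), a difference of −2.36 (exact two-sided permutation p = 0.1, the smallest possible; 0.175 adjusted over the 7 ratios computed). The ratio of Tgm5 to Tgm1 averaged −4.62 ± 0.15 in knockouts and −2.62 ± 0.26 in controls, also without overlap (exact permutation p = 0.1, adjusted 0.175). The ratio of Tgm5 to Tgm3 overlapped between groups and differed by 0.36 (exact permutation p = 0.3). Per kilobase of annotated exon, Tgm1 made up 87.5, 82.4 and 85.7% of the 3 genes' level in knockouts 1 to 3, against 55.7, 53.7 and 54.4% in controls 1 to 3. Tgm3 made up 9.06, 14.5 and 10.4% in knockouts, against 35.6, 35.7 and 38.0% in controls. The shares of the 2 groups did not overlap for any of the 3 enzymes. These are parts of a whole, so a higher Tgm1 by itself lowers the shares of Tgm3 and Tgm5. The normalized counts of Tgm3 and of Tgm5 overlapped between groups.

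**Figure D2:**
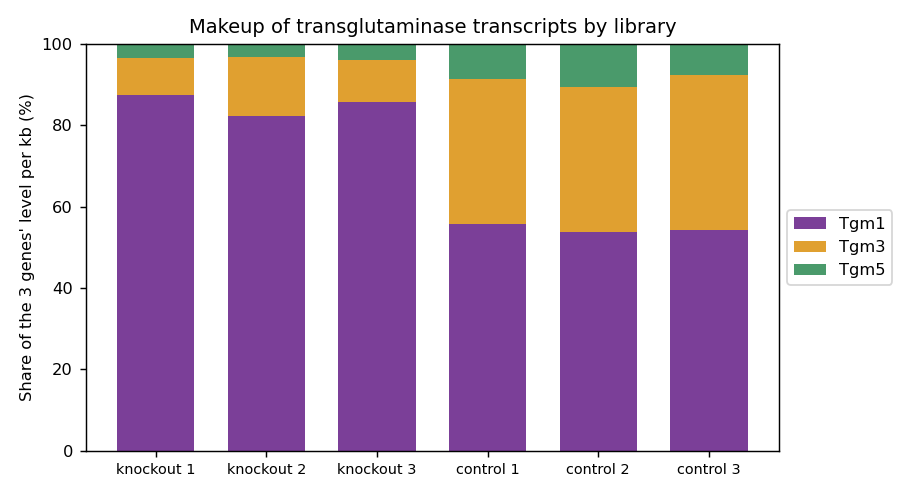
Share of Tgm1, Tgm3 and Tgm5 (%) in the sum of the 3 genes' normalized counts per kilobase of exon, 1 stacked bar per library, knockouts on the left. Tgm1 takes 82.4 to 87.5% in knockouts and 53.7 to 55.7% in controls.

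Cnfn encodes cornifelin, a small envelope protein. It had 7076, 16477 and 6833 normalized counts in knockouts 1 to 3, against 1159, 1635 and 1908 in controls 1 to 3. The lowest knockout was above the highest control, and knockout 2 stood above the other two. Cnfn was higher by 2.59 ± 0.35 on the log2 scale (SE, n = 3 and 3), a 6.04-fold rise whose 95% interval lay between 3.46-fold and 10.5-fold (limma adjusted p = 0.00133; exact permutation p = 0.1). Against the control with the adjacent animal number, knockouts 1 to 3 differed by 2.61, 3.33 and 1.84. Since the groups did not overlap, any pairing would give a rise in each pair.

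Ivl encodes involucrin, the glutamine-rich scaffold protein shown above. It had 1347, 1465 and 3437 normalized counts in knockouts 1 to 3, against 890.2, 1363 and 2140.0 in controls 1 to 3. The highest value of each group came from the library numbered 3, and the groups overlapped. Its log2 change of 0.46 ± 0.41 had a 95% interval between −0.48 and 1.41 (limma adjusted p = 0.409). Against the control with the adjacent animal number Ivl differed by 0.60, 0.10 and 0.68, and with the replicate block the SE was 0.16 (adjusted p = 0.0523). It was 0.03 without knockout 3 and −0.03 with knockout 1 alone. The log2 ratio of Cnfn to Ivl was 2.39, 3.49 and 0.99 in knockouts 1 to 3, against 0.38, 0.26 and −0.17 in controls 1 to 3, with every knockout above every control (difference 2.13, exact permutation p = 0.1, adjusted 0.175). This difference was 1.53 without knockout 2 and 2.78 without knockout 3.

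Scel encodes sciellin, a precursor of the envelope. It had 1406, 2729 and 2156 normalized counts in knockouts 1 to 3, against 987.6, 1382 and 1435 in controls 1 to 3. Knockouts 2 and 3 were above all controls, while knockout 1 lay between controls 2 and 3. Its log2 change of 0.69 ± 0.27 had a 95% interval between 0.08 and 1.30 and missed the threshold (limma adjusted p = 0.0768). Pairing adjacent animals in a replicate block, it passed (adjusted p = 0.00974), which made 3 members called higher, and it passed without knockout 1 (0.95, adjusted p = 0.0224).

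Evpl and Ppl encode envoplakin and periplakin, plakins that pair with each other and tie the envelope to desmosomes and keratin filaments. Evpl had 5192, 5437 and 6168 normalized counts in knockouts 1 to 3, against 5537, 6702 and 8081 in controls 1 to 3. Ppl had 6099, 6992 and 7687 in knockouts 1 to 3, against 8570.4, 9330.2 and 9914 in controls 1 to 3. Ppl was lower in all knockouts than in any control, and for Evpl knockouts 1 and 2 were below all controls while knockout 3 was above control 1. For Evpl the log2 change was −0.26 ± 0.19, with a 95% interval between −0.70 and 0.18 (limma adjusted p = 0.318). For Ppl it was −0.42 ± 0.17, with an interval between −0.82 and −0.03 (limma adjusted p = 0.091; exact permutation p = 0.1). Ppl passed with the replicate block (adjusted p = 0.0417), and both genes passed with equal library totals (−0.60 for Evpl and −0.77 for Ppl, adjusted p = 0.0374 and 0.00888).

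The log2 ratio of Evpl to Ppl was −0.23, −0.36 and −0.32 in knockouts 1 to 3 and −0.63, −0.48 and −0.29 in controls 1 to 3, with overlapping groups (difference 0.16, exact permutation p = 0.3). The ratio of Scel to Ppl did separate, at −1.77 ± 0.38 in knockouts and −2.89 ± 0.20 in controls (SD, n = 3 each; exact permutation p = 0.1, adjusted 0.175). The ratio of Ivl to Evpl differed by 0.72 with overlap (exact permutation p = 0.2, adjusted 0.28). That difference was 0.36 without knockout 3.

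**Figure D3:**
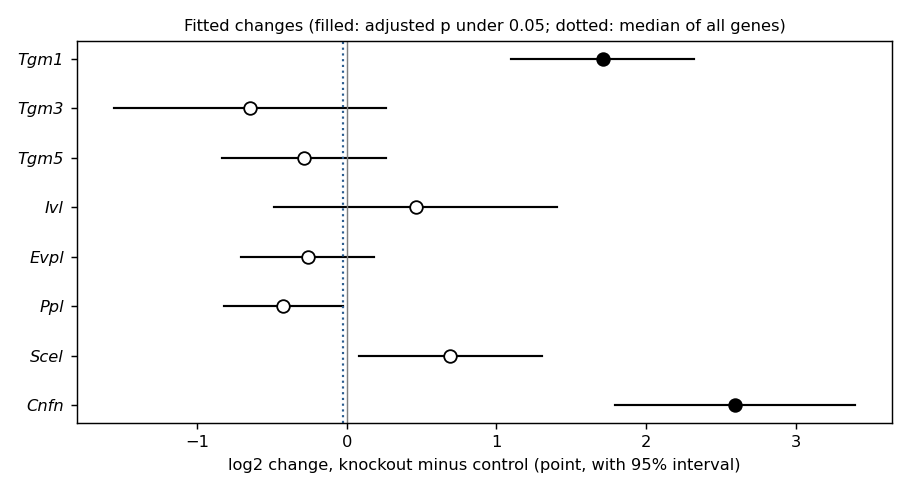
Log2 change (knockout minus control) of each gene with its 95% interval; filled points passed the threshold and the dotted line is the median of all tested genes (−0.02). Tgm1 at 1.71 and Cnfn at 2.59 are the only filled points, and the intervals of Tgm3, Tgm5, Ivl and Evpl include 0.

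**Figure D4:**
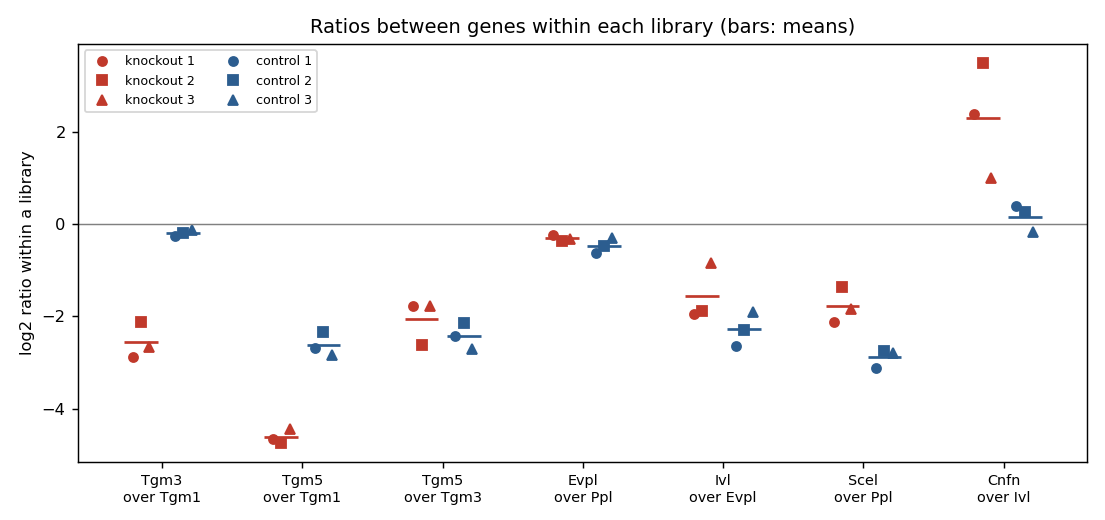
Log2 ratio of the named pairs of genes within each library, knockouts left of controls, with group means as bars. Of the 7 ratios, 4 separate the groups, namely Tgm3 over Tgm1, Tgm5 over Tgm1, Scel over Ppl and Cnfn over Ivl. Tgm1, Cnfn and Ppl also separate the groups alone, as do 50.8% of single genes over the table. The share among other pairs of genes was not computed.

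**Figure D5:**
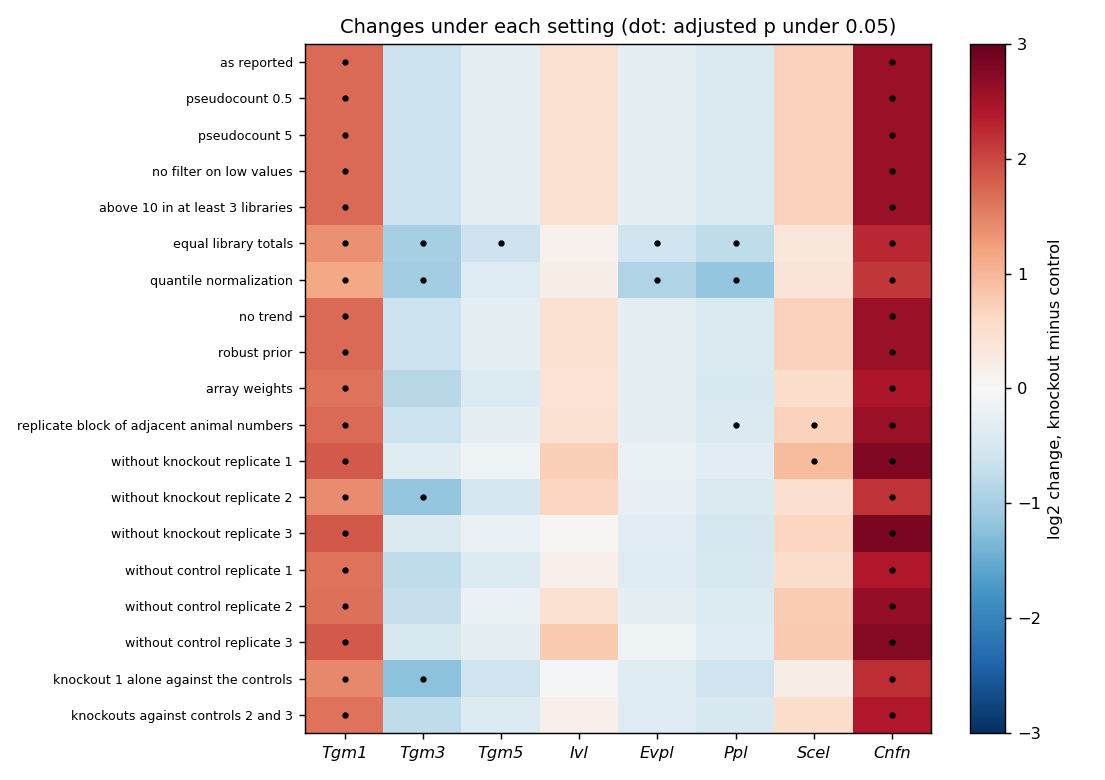
Log2 change (knockout minus control, colour) of the 8 genes under the reported fit and each alternative setting; dots mark an adjusted p under 0.05. Tgm1 and Cnfn carry a dot in every row, while Tgm3, Tgm5, Evpl, Ppl and Scel do so in some.

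Levels were compared between genes per kilobase of annotated exon. Cnfn was the highest of the 8 in both groups, with 14087 ± 7649 normalized counts per kilobase in knockouts and 2180 ± 527 in controls (SD, n = 3 each). In knockouts Tgm1 came second with 2841 ± 1077 and was separate from the next gene, Ivl, with 1084 ± 611. In controls Tgm1 had 838.8 ± 144.9, and came after Ppl with 1345 ± 97.8 and Evpl with 1061 ± 199. Tgm5 was the lowest in both, with 113.9 ± 33.8 in knockouts and 136.0 ± 19.8 in controls, and was separate from its neighbour in the order. In knockouts, neighbours from Ivl through Ppl, Evpl and Scel to Tgm3 overlapped in their libraries, as did neighbours in controls from Ppl through Evpl, Tgm1, Ivl and Tgm3 to Scel.

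The promoters of the genes called higher are shown beside those of 2 scaffold genes that carry a match to the AP-1 motif, which is bound by Fos and Jun proteins. Each is the 250 bases before a start listed by RefSeq (GRCm38.p6), with matches in capitals. Tgm1 is shown for 1 of its 2 listed starts. Both lie inside the GENCODE M21 gene, which on the minus strand begins at base 55713926, and the bases before that were not searched.
Tgm1 (chr14:55713493-55713742, minus strand): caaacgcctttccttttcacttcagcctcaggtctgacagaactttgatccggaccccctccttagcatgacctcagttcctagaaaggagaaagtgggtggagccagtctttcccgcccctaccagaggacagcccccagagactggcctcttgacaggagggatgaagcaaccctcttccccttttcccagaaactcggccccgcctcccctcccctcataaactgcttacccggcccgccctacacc
Cnfn (chr7:25369725-25369974, minus strand): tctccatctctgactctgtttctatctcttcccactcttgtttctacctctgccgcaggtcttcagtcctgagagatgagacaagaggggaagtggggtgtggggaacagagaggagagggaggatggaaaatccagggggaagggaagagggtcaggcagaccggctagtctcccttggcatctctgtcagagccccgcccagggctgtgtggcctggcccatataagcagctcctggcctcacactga
Ivl (chr3:92573736-92573985, minus strand): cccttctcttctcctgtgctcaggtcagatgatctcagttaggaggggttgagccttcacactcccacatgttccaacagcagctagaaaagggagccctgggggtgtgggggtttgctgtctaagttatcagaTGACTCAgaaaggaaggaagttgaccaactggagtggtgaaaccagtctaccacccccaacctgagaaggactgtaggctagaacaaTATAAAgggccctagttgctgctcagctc
Scel (chr14:103513091-103513340, plus strand): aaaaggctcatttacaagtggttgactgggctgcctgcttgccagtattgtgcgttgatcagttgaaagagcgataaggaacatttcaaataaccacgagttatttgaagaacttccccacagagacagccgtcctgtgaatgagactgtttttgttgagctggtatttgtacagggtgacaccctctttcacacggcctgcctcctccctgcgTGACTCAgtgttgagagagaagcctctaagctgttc
A set of 3 motifs was searched on both strands of the 300-base RefSeq promoters: TGANTCA for AP-1, AACNGGTT for Grainyhead-like factors and TATAAA for the TATA box. They occurred in 7.81%, 2.09% and 13.6% of 32851 promoters. AP-1 matched in Ivl, 116 bases before the start, and in Scel, 36 bases before it. TATAAA matched in Ivl and Tgm3, 29 and 28 bases before the start, and AACNGGTT in Tgm5, 4 bases before it. Neither of the 2 Tgm1 starts listed by RefSeq nor the Cnfn promoter held any of the 3 motifs. Only matches to the exact letters, with N as any base, were counted, and near matches were not looked for. Promoters were matched by symbol for 6 of the 8 genes, and Evpl and Ppl are named only.

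Other genes of envelope assembly were taken from lists. Of 7 further transglutaminase family genes, only Tgm2, the widely expressed tissue transglutaminase, was in the table. It had 16.8, 241.6 and 16.6 normalized counts in knockouts 1 to 3, against 2.27, 2.91 and 0.817 in controls 1 to 3, levels of few reads. Its fitted log2 change of 3.89 ± 1.04 (limma adjusted p = 0.0218) was 4.17 and 2.81 with pseudocounts of 0.5 and 5. Without knockout 2 it was 2.64, and the call was lost (adjusted p = 0.0522), as it was without control 1 or 3 (0.0501 and 0.0635).

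Proteases and inhibitors that act on transglutaminases were higher for 3 of 5 genes and lower for 0, beside 17.7% higher and 15.9% lower over the table. Their median log2 change was 1.19, beside −0.02 for all tested genes. Ctsl, encoding cathepsin L, which in mice cleaves the Tgm3 zymogen, had 4043, 7530.2 and 3587 normalized counts in knockouts 1 to 3, against 805.9, 820.9 and 840.3 in controls 1 to 3. All knockouts were above all controls, with a log2 change of 2.54 ± 0.27 (limma adjusted p = 4.91e-04). Cst6, encoding cystatin M/E, an inhibitor of cathepsin L and legumain, was higher by 2.17 ± 0.24, with 2177 to 3968 normalized counts in knockouts and 552.7 to 638.4 in controls (limma adjusted p = 5.83e-04). Ctsd, encoding the aspartic protease cathepsin D, was higher by 1.19 ± 0.18 (limma adjusted p = 0.00205). Lgmn (legumain) and the calpain gene Capn1 differed by 0.41 and 0.09 and did not pass.

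Of 6 other plakins and plakin partners, 5 were measured, 1 was higher and 0 were lower, beside 17.7% higher and 15.9% lower over the table, with a median log2 change of 0.00. Macf1, a plakin that links actin to microtubules, was higher by 1.81 ± 0.28, with 6327 to 13339 normalized counts in knockouts and 2670 to 3145 in controls (limma adjusted p = 0.00225). Dsp, the desmosomal plakin desmoplakin, had 59558 to 68019 normalized counts in knockouts and 64368 to 71622 in controls. Its log2 change was −0.06 ± 0.20 (limma adjusted p = 0.826). In 2 of the 18 settings Dsp was called lower, with equal library totals and with quantile normalization (−0.41 and −0.70, limma adjusted p = 0.0472 and 0.0426).

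Other envelope and cornified layer proteins were higher for 10 of 17 measured genes and lower for 0. That stands beside 17.7% higher and 15.9% lower among all tested genes. Their median log2 change was 0.96, beside −0.02 for all tested genes. With quantile normalization 6 of the 17 were higher and 3 lower, and 7 of the 18 settings called at least 1 lower. All knockouts lay below all controls for Flg (−0.46) and Dsg1a (−0.67) and above them for Jup (0.66), without passing. The list was chosen with earlier results of these data known, and Cst6 is counted both here and among the proteases and inhibitors. This list leaves out Flg2, Hrnr and Casp14, the granular keratinocyte markers called lower above. Rptn, encoding repetin, was higher by 5.63 ± 0.38, with 13657 to 31533 normalized counts in knockouts and 252.6 to 578.4 in controls (limma adjusted p = 7.07e-05). Serpinb2, a serine protease inhibitor, was higher by 3.70 ± 0.36 and Kprp, encoding a proline-rich keratinocyte protein, by 1.80 ± 0.18 (limma adjusted p = 3.34e-04 and 3.51e-04). Lor, the main late component, had 20595, 22281 and 30711 normalized counts in knockouts 1 to 3, against 22436, 24233 and 25254 in controls 1 to 3, a log2 change of 0.01 ± 0.21. With quantile normalization Lor was at −0.83 and called lower (limma adjusted p = 0.0194).

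Genes that attach ceramides to the outer face of envelope proteins, or supply those ceramides, were higher for 5 of 8 and lower for 0. That stands beside 17.7% higher and 15.9% lower over the table, and their median log2 change was 0.88. With quantile normalization 3 of the 8 were higher and 1 lower. Alox12b, 1 of the 5, was higher by 1.09 ± 0.32 on the log2 scale, a call lost in 7 of the 18 settings. The lipid transporter gene Abca12 was higher by 1.43 ± 0.22, with 19189 to 29805 normalized counts in knockouts and 7733 to 9768 in controls (limma adjusted p = 0.0022). The ceramide synthase Cers3, the fatty acid hydroxylase Cyp4f39 and the elongase Elovl4 were higher by 0.92 ± 0.21, 1.02 ± 0.24 and 0.84 ± 0.24, although Elovl4 was at −0.18 with quantile normalization. Without control 1, 2 or 3 Elovl4 was higher by 0.76, 0.88 or 0.89, of similar size, but missed the threshold (limma adjusted p = 0.101, 0.0846 and 0.0732). Without control 1, 2 of the 8 genes passed, while calls over the table fell to 2682, against 4328 with all libraries.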

How the data were processed

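The authors deposited normalized counts per gene, a signal that is never negative, for 6 libraries. The genome build mm39, Partek version 9.0.20.0202 and TopHat2 version 2.1.0 are named per the submitters' processing notes, without saying what each did. The normalization method is not given in the sources used here. Among low values (20 reads or fewer), 80.4 to 83.0% per library were a whole number of steps (within 0.02), so no count model was used, and dividing by that step gave the estimated reads.

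Symbols were matched by Ensembl ID for 12771 of 12894 IDs. Values were taken as log2(value + 1), so changes of low genes are understated. Genes above 1 in at least 3 libraries were kept and fitted with limma 3.58.1 in R 4.3.3 (trend, 12872 genes); errors are moderated SEs and intervals are 95%. The fit was also run on simulated data with libraries drawn independently, unlike the adjacent animals described below, and no result rests on that run. Ratios were tested by exact two-sided permutation (scipy 1.17.1).

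Exon lengths and coding sequences came from GENCODE M21 (GRCm38), another build than mm39, so expression was not placed on coordinates. For each gene of the table the transcript with the longest coding sequence was used, and for the 8 genes the one tagged as principal. Strand assignment is not stated: an antisense gene overlaps 182 exonic bases of Tgm1.

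Libraries with adjacent animal numbers (216 and 217, 241 and 242, 250 and 251) deviated together from their group means (r = 0.37, 0.23 and 0.36 across genes), so these were taken as pairs, from the data and not from a stated litter.

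The members and lists were chosen with earlier results of these data known. The text names the 8 genes, Hnrnpu, per list up to 4 genes past the threshold by smallest adjusted p (or the 2 highest where none passed), and the 2 genes most like each member. Xist, the marker genes, Lgmn, Capn1, Dsp, Lor, Jup, Alox12b, Grhl3, Klf4, Cebpb, Jund, Jun and Junb, and the lower transcription factors, were named after their values were seen.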

Additional observations from a re-analysis of the deposited data

How the results depend on the processing

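The rises of Tgm1 and Cnfn passed under all 18 alternatives (leaving out control 1 and comparing with controls 2 and 3 are the same fit), with log2 changes of 1.15 to 1.87 and 2.11 to 2.81. With equal library totals, which moves the median of all genes to −0.36, Tgm3 (−0.99), Tgm5 (−0.63), Evpl (−0.60) and Ppl (−0.77) were called lower, 4 in all. With quantile normalization Tgm3 (−1.04), Evpl (−0.90) and Ppl (−1.15) were called lower, 3 in all. The replicate block of adjacent animal numbers called Ppl lower (−0.42) and Scel higher (0.69), so 1 member was lower, and it changed no other member's call. Knockout 1 alone against the controls, which assumes that the lone library varies as they do, called 1 member lower (Tgm3, −1.23) and turned Ivl to −0.0295. Leaving out 1 library at a time gave −1.16 to −0.35 for Tgm3, 0.48 to 0.95 for Scel, 0.03 to 0.78 for Ivl, and 2 to 3 members called higher and 0 to 1 lower. Over all genes it called 2631 to 4464, with 1515 to 2300 higher and 1107 to 2164 lower. Without control 1, which is also the comparison with controls 2 and 3, 2682 genes were called, 1155 of them lower. Equal totals called 1440 genes higher, and knockout 1 alone called 2711, of which 1305 were higher. The 7 ratios kept their direction in the 9 settings run for them, which were the pseudocounts, equal totals and leaving out each library. The cause of these shifts was not tested. List counts under these settings were added after seeing the data. Genes higher on the transcription factor list numbered 6 with quantile normalization or knockout 1 alone. With 3 libraries per group, permutation tests cannot pass the threshold.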

Other observations

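Transcription factors of late differentiation were higher for 10 of 24 genes and lower for 3, beside 17.7% higher and 15.9% lower among all tested genes. Their median log2 change was 0.53, beside −0.02 for all tested genes. The ETS factor gene Ehf was higher by 3.49 ± 0.46, with 1611, 3981 and 1090.0 normalized counts in knockouts 1 to 3, against 149.5, 256.8 and 127.5 in controls 1 to 3 (limma adjusted p = 0.00114). The AP-1 gene Fosl1 was higher by 3.57 ± 0.47, the homeodomain-only factor Hopx by 2.28 ± 0.28 and the oxidative stress factor Nfe2l2 by 1.56 ± 0.23. Among the 10 higher genes, the call was lost in 11 of the 18 settings for Cebpb, 10 for Jund, 8 for Jun and 2 for Junb. The calls of the other higher genes held in all 18. Lower were Cebpa by −0.96 ± 0.29 and the POU factors Pou2f3 by −2.11 ± 0.39 and Pou3f1 by −2.59 ± 0.52. Pou3f1 had 121.5, 154.8 and 601.0 normalized counts in knockouts 1 to 3, against 1278, 1153 and 1683 in controls 1 to 3. Cebpa was at −0.87 without control 2, −0.84 without control 3, −0.68 without knockout 1 and −0.996 without knockout 2, and missed the threshold each time (limma adjusted p = 0.112, 0.113, 0.0797 and 0.0636). Lower members numbered 6 with the replicate block, 5 with equal library totals and 7 with quantile normalization. Grhl3 and Klf4, which drive barrier formation in mice, differed by 0.10 ± 0.36 and 0.07 ± 0.28, with 95% intervals between −0.72 and 0.92 and between −0.57 and 0.71. With quantile normalization Klf4 was at −0.90 and called lower (limma adjusted p = 0.00752).

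Calcium handling genes were higher for 1 of 10 measured and lower for 2, with a median log2 change of −0.19, beside 17.7% of all tested genes called higher and 15.9% lower. With quantile normalization 0 were higher and 4 lower, and setting library totals equal gave 0 higher and 3 lower. Atp2a2, the calcium pump of the endoplasmic reticulum, was higher by 0.73 ± 0.18, with 4680.1 to 5669 normalized counts in knockouts and 2685 to 3504 in controls (limma adjusted p = 0.0146). Orai1, a plasma membrane calcium channel, was lower by −0.99 ± 0.25 and the calmodulin-like gene Calml3 by −0.85 ± 0.22. Changes of similar size missed the threshold for Atp2a2 without control 1 or 2 (0.64 and 0.73, limma adjusted p = 0.067 and 0.0604). The same held for Orai1 without control 1 or 3 (−0.86 and −1.0, adjusted p = 0.0738 and 0.0556) and for Calml3 without control 2 or 3 (−0.81 and −0.76, adjusted p = 0.071 and 0.0743). Atp2a2 also missed the threshold with equal library totals (0.0603).

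The genes whose centred log2 values lay closest to each member over the 6 libraries were found among genes at or above the median level, as a description. Closest to Tgm1 were Efnb2, an ephrin ligand (distance 0.22), and Anxa8, an annexin (0.22), with log2 changes of 1.63 and 1.72. Closest to Cnfn were Nt5e, an ecto-nucleotidase (0.33), and Gjb2, the gap junction protein connexin 26 (0.40), with changes of 2.47 and 2.80. Closest to Ppl were Ap1s1 (0.07) and Epb41 (0.07), to Evpl Nr2f6 (0.09) and Chfr (0.15), to Scel Srp54c and Rnasek (both 0.20), and to Tgm5 Glt28d2 (0.17) and Ctns (0.22). Tgm3 and Ivl had no close match: their nearest were Prkcd (0.56) and Cyp2b10 (0.57), and Slc41a1 (0.51) and Atp7a (0.56).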
